A study of Mus musculus with 9 samples.

Results

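The receptors that steer T cells into, hold them in and release them from lymphoid organs were examined in MYCN-driven T cell lymphoma. They are 9 genes, taken by symbol from the 46078 genes of the count table: S1pr1, Gpr183, Cd69, Ccr7, Ccr9, Cxcr4, Ccr4, Itga4 and Itgb7. All 9 had 1 row each and all 9 were among the 15401 genes that passed the expression filter. Transcript 3′ ends were sequenced in 6 samples of lymphoma cells collected from the thymus (lymphoma 34, 53, 56, 70, 72 and 86) and in 3 samples of CD4+ T cells from the spleen (CD4 1, 2 and 3). Per the labels, all were C57BL/6J mice, the lymphomas were induced by MYCN, a transcription factor of the MYC family. The promoter that drove MYCN, the animals' ages and whether each library came from a separate animal are not given in the sources used here, so p-values measure the spread between these samples. Thymus or spleen coincided with the group, so tumour and tissue of origin cannot be told apart. In bulk samples like these, fewer cells of a type and less RNA per cell cannot be told apart either.

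Lymphocyte traffic is set by a balance of signals. Sphingosine 1-phosphate (S1P) is abundant in blood and lymph and low in tissue, and S1PR1, its receptor, draws mature T cells out of the thymus, spleen and lymph nodes. CD69 binds S1PR1 and removes it from the cell surface, which retains the cell. CCR7 guides T cells into lymph nodes and maturing thymocytes to the medulla, CXCR4 holds early thymocytes in the cortex, and CCR9 and the integrin of the α4 and β7 chains serve traffic to the gut. In mature T cells the transcription factors KLF2 and FOXO1 sustain S1pr1 and Ccr7.

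The libraries held 11170704 to 15769679 reads counted in genes in lymphoma and 8099960 to 10808828 in CD4, so a count of 0 allows at most 0.360 counts per 1000000 counted reads (CPM, on the TMM-scaled library size). Counts of the mouse gene Mycn did not exceed 3 in a lymphoma or 6 in a CD4 library, so the labels were not checked by the driver. Lymphoma 53 stood apart, with a Pearson r over genes of 0.884 to 0.900 with the other lymphomas, which correlated with each other at 0.939 to 0.980. The T cell markers Cd3e and Cd3d were present in every library, at 150 to 217 and 386 to 512 CPM in lymphoma and 138 to 192 and 420.5 to 454 CPM in CD4. Cd4 stood at 199 to 263 CPM in the CD4 libraries and at 6.04 to 71.9 CPM in the lymphomas. The Y-linked gene Ddx3y lay at 119 to 178 CPM in lymphoma and at most 0.734 CPM in CD4, so sex also coincided with the group.

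Markers of other cell types moved with the groups. The summed level of 10 B cell markers was 1254 to 1514 CPM in the CD4 libraries and 6.85 to 13.4 CPM in the lymphomas (exact permutation p = 0.0238, two-sided, which is the lower limit for 6 against 3, and 0.0333 after adjustment over 7 marker lists). All 10 were lower in every lymphoma than in every CD4 library, and none was at 0 in all libraries of a group. The sum of 6 plasmacytoid dendritic cell markers was 243 to 271 CPM in CD4 and 27.4 to 63.6 CPM in lymphoma, and that of 6 natural killer and innate lymphoid markers was 106 to 114 CPM and 9.69 to 63.2 CPM. Stromal and endothelial markers (11 genes) summed to 220 to 241 CPM in CD4 and 96.4 to 180 CPM in lymphoma, with 2 genes at 0 in every CD4 library and 1 at 0 in every lymphoma, although the median log2 fold change of the 7 tested was 0.98. Erythroid markers (6 genes) summed to 1.10 to 5.15 CPM and 13.6 to 46.7 CPM. Of the 5 erythroid genes tested singly by edgeR, 1 was higher and 4 did not pass, with log2 fold changes from -1.73 to 5.87. These last 4 lists had the same exact permutation p of 0.0238, adjusted to 0.0333. Myeloid and dendritic markers (10 genes) overlapped, at 314 to 407 CPM in CD4 and 45.2 to 1157 CPM in lymphoma (adjusted exact permutation p = 0.762), as did 9 T cell markers, at 2783 to 2884 and 1997 to 3633 CPM (0.444). Without lymphoma 53 the T cell sum was lower in lymphoma (adjusted exact permutation p = 0.0417). The 9 T cell markers include Cd4, which names the comparison samples, so this sum does not measure T cell content alone. Cd4 and Cd2 were lower in every lymphoma than in every CD4 library, and 1 of the 9 was higher in every lymphoma. The sum without Cd4 was not tested. B cells also express S1pr1, Ccr7, Gpr183, Cd69, Itgb7 and Cxcr4, and plasmacytoid dendritic cells Ccr9. The part of such cells in the levels described next was not tested.

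**Figure D1:**
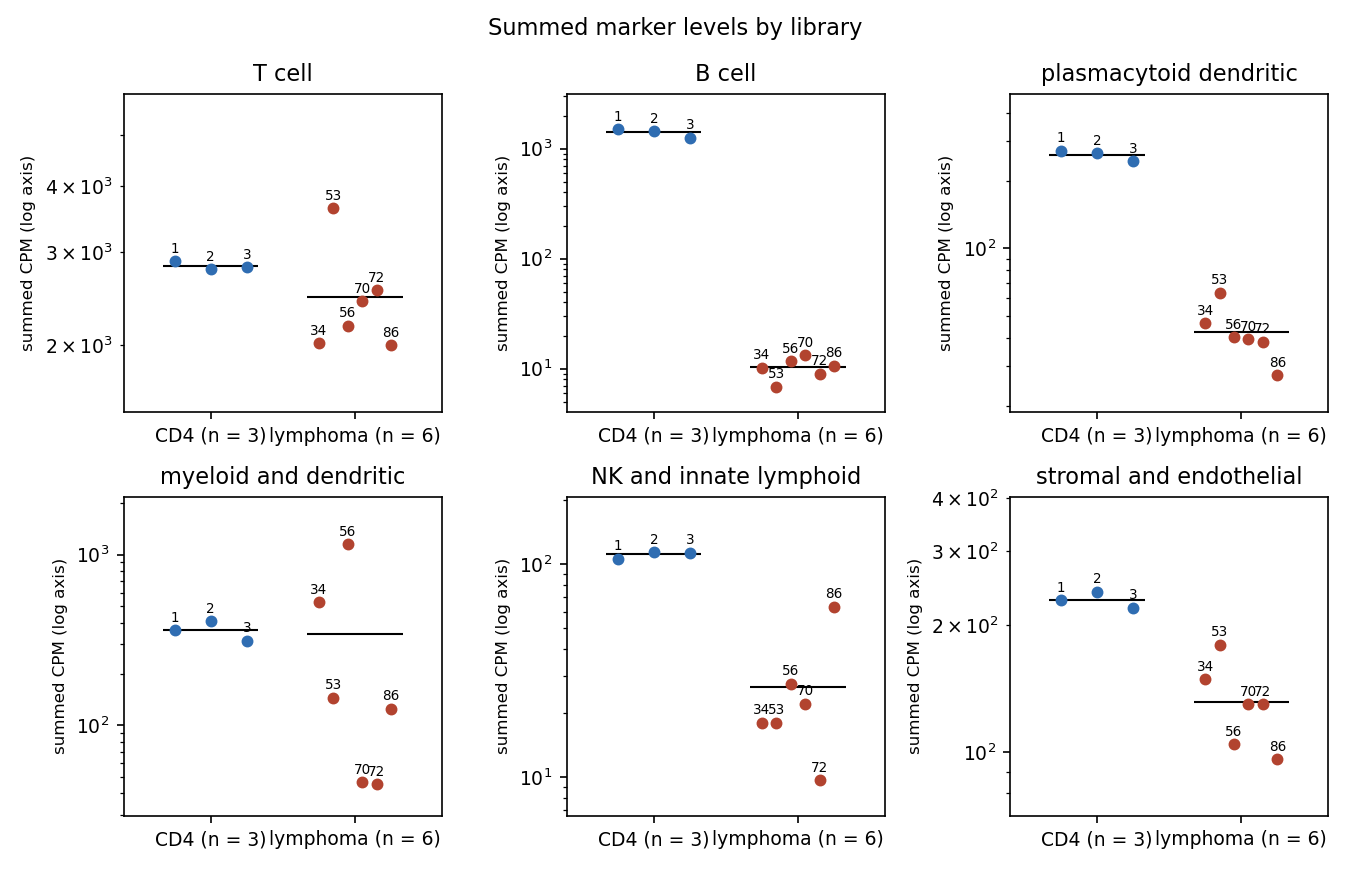
Summed CPM (log axis) of 6 of the 7 marker lists in each library, CD4 in blue and lymphoma in red, with numbers naming the library and bars the group mean; erythroid markers are not drawn. B cell markers lie at 1254 to 1514 CPM in CD4 and 6.85 to 13.4 CPM in lymphoma, while T cell markers overlap between the groups.

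Of the 9 receptors, 6 were lower in lymphoma, 1 was higher and 2 did not pass the test. The fallen genes were S1pr1, Gpr183, Cd69, Ccr7, Ccr9 and Itgb7, and the gene that rose was Cxcr4. Genes called lower made up 21.9% of all tested genes and genes called higher 24.7%, so 46.6% were called in either direction (edgeR quasi-likelihood test, Benjamini-Hochberg adjusted p under 0.05). A fall of at least 8-fold was met by 5 of the 9 receptors and by 6.19% of tested genes. The groups did not overlap in CPM at 7 of the 9 receptors, against 44.9% of all tested genes. The median log2 fold change, lymphoma over CD4, was -3.59 over the receptors and 0.04 over all tested genes. The receptors were proposed with earlier results of these data known, so the list as a whole was not tested.

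**Figure D2:**
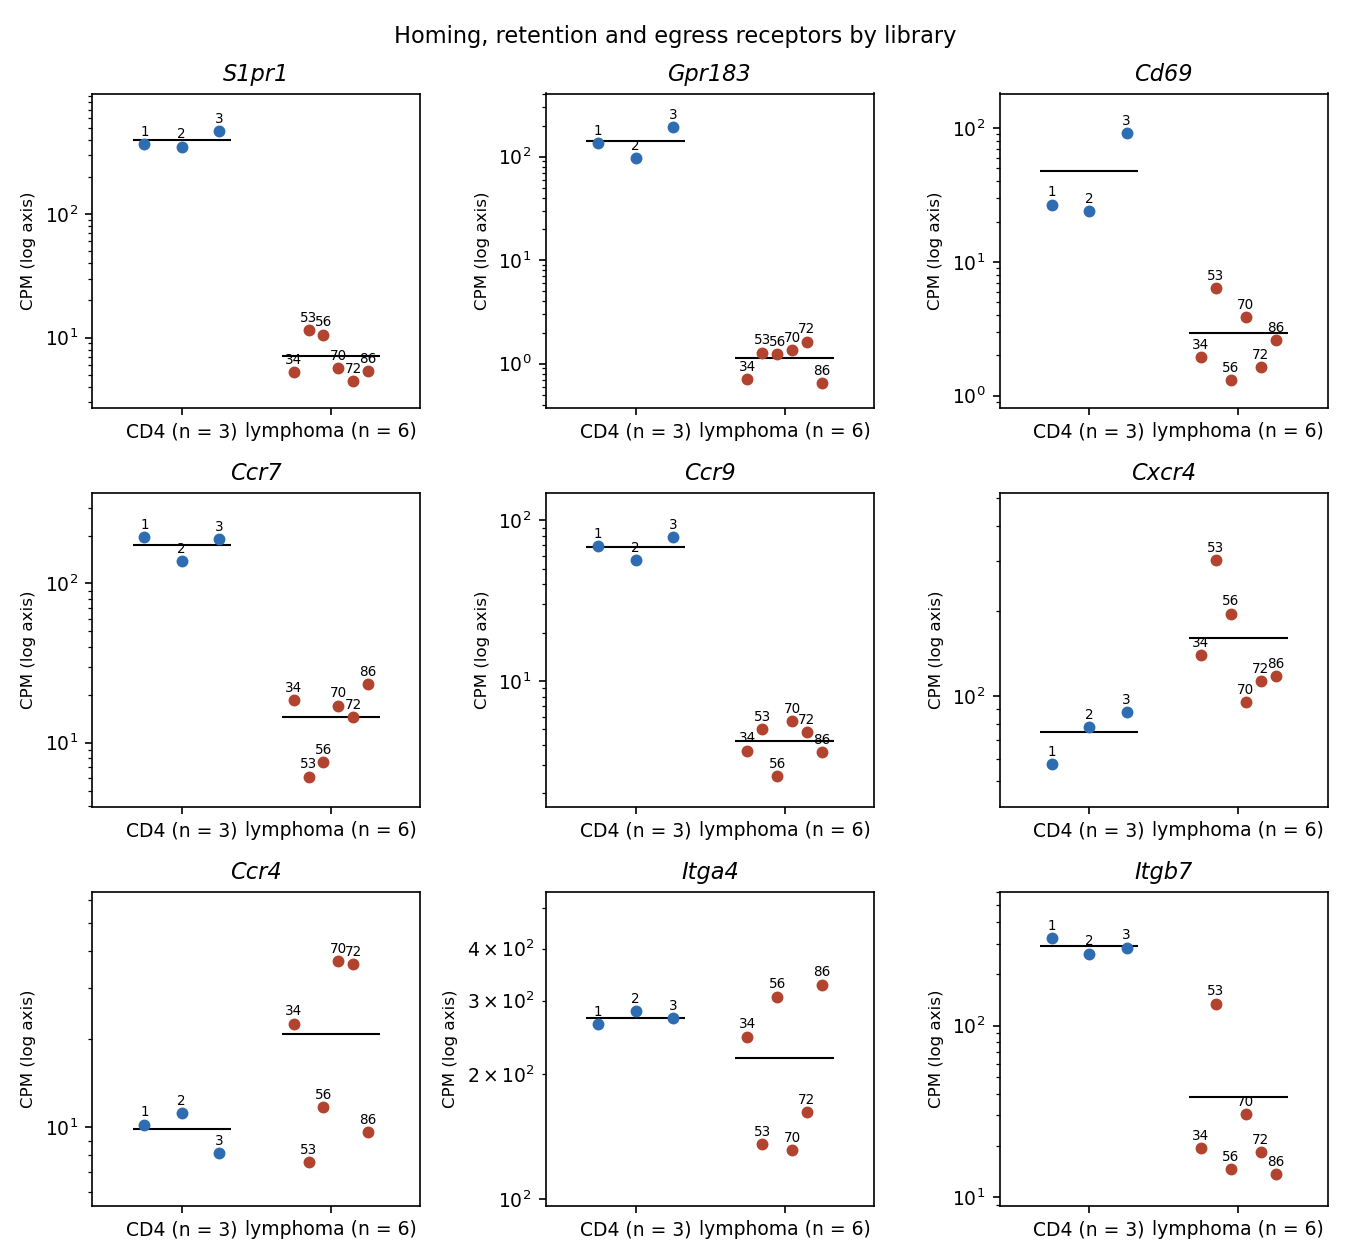
Level of each receptor gene in CPM (log axis) in the 3 CD4 (blue) and 6 lymphoma (red) libraries; numbers name the library and bars mark the group mean. S1pr1, Gpr183, Cd69, Ccr7, Ccr9 and Itgb7 lie lower in all 6 lymphomas than in any CD4 library, Cxcr4 lies higher, and Ccr4 and Itga4 overlap.

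The egress receptor was among the most reduced. S1pr1 (ENSMUSG00000045092, chromosome 3, 115710433 to 115715072, minus strand, GRCm38, 2 exons) had 368, 350.0 and 467 CPM in CD4 1, 2 and 3. In lymphoma its lowest, median and highest levels were 4.45, 5.52 and 11.5 CPM. Lymphomas 53 and 56 were the upper pair at 11.5 and 10.5 CPM, the other 4 lay between 4.45 and 5.70 CPM, and none came near the CD4 range. Group means were 395 ± 63.0 CPM (SD, n = 3) for CD4 and 7.14 ± 3.06 CPM (SD, n = 6) for the lymphomas. S1pr1 was 55.5-fold lower (log2 fold change -5.80, SE 0.311, edgeR adjusted p = 2.05e-07), and 1.25% of tested genes had a lower log2 fold change. The counts behind these levels were 68 to 145 per lymphoma and 2917 to 5092 per CD4 library.

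Gpr183 (EBI2), a receptor for oxysterols that places lymphocytes at the edges of follicles, fell furthest of the 9. The gene (ENSMUSG00000051212) lies on chromosome 14, 121952551 to 121965195, minus strand, with 2 exons. It had 135, 96.6 and 192 CPM in CD4 1, 2 and 3, while the lymphomas ran from 0.650 over a median of 1.26 to 1.64 CPM. All lymphomas were close to the limit of detection, with 9 to 25 counts each, against 805 to 2093 counts in CD4. The log2 fold change was -6.94 (SE 0.306, edgeR adjusted p = 6.54e-08), a 123-fold lower level.

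The retention marker moved the same way as the egress receptor it opposes. Cd69 (ENSMUSG00000030156, chromosome 6, 129267325 to 129275436, minus strand, 5 exons) had 26.8, 24.0 and 91.6 CPM in CD4 1, 2 and 3, and 1.31, 2.27 and 6.39 CPM as the lowest, median and highest lymphoma. The CD4 libraries were uneven, CD4 3 standing 3.82-fold above CD4 2, and lymphoma 53 was the highest lymphoma. Its log2 fold change was -4.01 (SE 0.541, edgeR adjusted p = 0.000126). Without CD4 3 the change was -3.10 (edgeR adjusted p = 0.000977). In CD4 3 the genes Rgs1 and Klf6, which are induced early after stimulation, were also highest, at 230 and 1957 CPM against 52.1 and 85.2 CPM and 352 and 467 CPM in CD4 1 and 2. Whether the state of that sample bears on its Cd69 level was not tested.

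Receptors for entry into lymph nodes and for the gut were reduced as well. Ccr7 (ENSMUSG00000037944, chromosome 11, 99144196 to 99155077, minus strand, 3 exons) had 196, 138 and 191 CPM in CD4 1, 2 and 3. The lymphomas ran from 6.12 over a median of 15.7 to 23.4 CPM. Lymphomas 53 and 56 were the lowest, at 6.12 and 7.57 CPM, which is the reverse of their place for S1pr1, and lymphoma 86 was the highest. The groups were far apart, and the level was 12.0-fold lower in lymphoma (log2 fold change -3.59, SE 0.357, edgeR adjusted p = 1.42e-05).

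Ccr9, the receptor for the thymic and intestinal chemokine CCL25, had 68.8, 56.4 and 78.3 CPM in CD4 1, 2 and 3 and 2.55, 4.23 and 5.63 CPM as the lowest, median and highest lymphoma. Of the 9 genes it varied least among the lymphomas, with a coefficient of variation of 26.9%. The log2 fold change was -4.01 (SE 0.250, edgeR adjusted p = 4.03e-07), 16.1-fold lower in lymphoma. Ccr9 (ENSMUSG00000029530) is annotated on chromosome 9, 123678439 to 123784330, plus strand, with 4 exons in its principal transcript. Some of its exons overlap those of AC165425.1, Gm17200 and Slc6a20a. Since the strand setting of the counting is not given in the sources used here, its level is less certain than those of genes without such overlap.

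Cxcr4, the receptor for CXCL12, was the one gene of the set that rose. The gene (ENSMUSG00000045382) lies on chromosome 1, 128588199 to 128592293, minus strand, with 2 exons. The CD4 libraries 1, 2 and 3 had 57.5, 78.0 and 88.0 CPM, and the lowest, median and highest lymphoma 95.1, 128 and 302 CPM. All lymphomas lay above all CD4 libraries, but lymphoma 70 exceeded CD4 3 by little, and lymphoma 53 was highest. The log2 fold change was 1.11 (SE 0.353, edgeR adjusted p = 0.0232), a 2.15-fold higher level, and 24.7% of tested genes were called higher. The call was lost without CD4 1 (log2 fold change 0.96, edgeR adjusted p = 0.0871) and without CD4 2 (1.15, edgeR adjusted p = 0.0650). Without lymphoma 53 it was 0.82 with an edgeR adjusted p of 0.0106.

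Ccr4, the receptor for CCL17 and CCL22, which is used by thymocytes on their way to the medulla and by skin-homing T cells, split the lymphomas. Its gene (ENSMUSG00000047898) lies on chromosome 9, 114490316 to 114504916, minus strand, with 2 exons. Levels were 10.2, 11.2 and 8.16 CPM in CD4 1, 2 and 3. Lymphomas 70, 72 and 34 had 37.1, 36.2 and 22.6 CPM, and lymphomas 56, 86 and 53 had 11.7, 9.60 and 7.58 CPM. The first of these trios lay above every CD4 library and the second lay around the CD4 levels. Over all 6 the log2 fold change of 1.08 (SE 0.521) did not pass, with an edgeR adjusted p of 0.110. Without lymphoma 53 it was 1.25 and passed (edgeR adjusted p = 0.0355). The lymphomas with more Ccr4 also had more Cd4, at 62.6, 48.6 and 71.9 CPM in lymphomas 34, 70 and 72 and 6.04 to 13.8 CPM in the others, a pattern singled out after the values were seen and not tested.

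The integrin chains behaved differently from each other. Itgb7 encodes the β7 chain, which pairs with α4 to bind MAdCAM-1 on gut and mucosal vessels. The gene (ENSMUSG00000001281) lies on chromosome 15, 102215995 to 102231944, minus strand, with 15 exons. It had 321, 262 and 284 CPM in CD4 1, 2 and 3, and 13.6, 18.9 and 134 CPM as the lowest, median and highest lymphoma. Lymphoma 53 alone held 134 CPM, and the other lymphomas lay between 13.6 and 30.4 CPM. The log2 fold change was -2.92 (SE 0.712, edgeR adjusted p = 0.00821), and without lymphoma 53 it was -3.91 (edgeR adjusted p = 1.65e-07). With lymphomas 34, 70 and 72 averaged into 1 library and 56 and 86 into another, it was -2.34 and no longer passed (edgeR adjusted p = 0.0546).

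Itga4, the α4 chain, did not pass the test. It had 264, 283 and 272 CPM in CD4 1, 2 and 3, a narrow range, and 131, 204 and 328 CPM as the lowest, median and highest lymphoma. Lymphomas 86 and 56 lay above all CD4 libraries and lymphomas 34, 72, 53 and 70 below them. The log2 fold change was -0.32 (SE 0.293, edgeR adjusted p = 0.396). Itga4 (ENSMUSG00000027009) is annotated on chromosome 2, 79255426 to 79333123, plus strand, with 28 exons, and overlaps exons of Cerkl. Its level is therefore also less certain, as for Ccr9. The β1 chain Itgb1, the other partner of α4, with which it binds VCAM-1 and fibronectin, had 94.7 to 144 CPM in lymphoma and 125 to 187 CPM in CD4 (log2 fold change -0.25, SE 0.189, edgeR adjusted p = 0.306). Itgae, the αE chain that pairs with β7 and binds E-cadherin, was at 0.728 to 3.93 CPM in lymphoma and 2.67 to 7.32 CPM in CD4 (-1.11, SE 0.539, edgeR adjusted p = 0.111).

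The sequences just upstream of the RefSeq transcription start are shown for 4 genes: Itgb7 and Itga4, since these subunits of one integrin differed in their change, Gpr183 as the deepest fall, and Cxcr4 as the rise. Each is the 250 bases before the RefSeq start on GRCm38.p6, 5′ to 3′ on the gene's strand. RefSeq windows were matched for 6 of the 9 genes, that is all but S1pr1, Ccr7 and Cd69. Capitals mark matches, on either strand, to the core CACCC, which Krüppel-like factors such as KLF2 bind, and to the TATA box, TATAAA. A match on the other strand reads GGGTG for the former and TTTATA for the latter. The E-box CACGTG, bound by MYC family proteins with MAX, and the forkhead core GTAAACA were searched too and had no match in any of the 6 windows.
Itgb7: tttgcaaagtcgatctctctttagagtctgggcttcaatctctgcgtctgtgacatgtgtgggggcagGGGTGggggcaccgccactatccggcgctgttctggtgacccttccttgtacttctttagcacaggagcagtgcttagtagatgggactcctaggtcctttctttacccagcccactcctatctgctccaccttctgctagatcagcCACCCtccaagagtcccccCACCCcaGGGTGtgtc
Itga4: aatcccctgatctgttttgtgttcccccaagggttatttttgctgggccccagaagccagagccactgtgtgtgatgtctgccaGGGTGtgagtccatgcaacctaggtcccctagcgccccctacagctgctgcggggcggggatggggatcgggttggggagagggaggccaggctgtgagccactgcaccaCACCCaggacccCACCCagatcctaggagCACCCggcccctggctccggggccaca
Gpr183: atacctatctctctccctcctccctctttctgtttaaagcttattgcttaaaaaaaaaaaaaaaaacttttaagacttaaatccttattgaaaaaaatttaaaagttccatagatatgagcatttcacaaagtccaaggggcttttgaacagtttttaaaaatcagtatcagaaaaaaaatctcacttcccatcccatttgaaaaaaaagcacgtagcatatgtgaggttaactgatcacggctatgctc
Cxcr4: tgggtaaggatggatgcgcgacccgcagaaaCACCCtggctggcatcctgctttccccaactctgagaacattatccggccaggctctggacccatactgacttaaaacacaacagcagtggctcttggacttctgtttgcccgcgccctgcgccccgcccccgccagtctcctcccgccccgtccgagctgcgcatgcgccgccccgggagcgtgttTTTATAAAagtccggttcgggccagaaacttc
The windows are chr15:102231936-102232185 (minus) for Itgb7, chr2:79255176-79255425 (plus) for Itga4, chr14:121965194-121965443 (minus) for Gpr183 and chr1:128592300-128592549 (minus) for Cxcr4. The last 9 bases of the Itgb7 window, which hold its final GGGTG, and the last 2 of the Gpr183 window lie inside the gene as GENCODE annotates it. The windows of Ccr4 and Ccr9 lie wholly inside their GENCODE genes, whose outermost transcripts start 8372 and 88772 bases before the RefSeq start. The nearest GENCODE transcript start is 18 bases from the RefSeq start for Ccr4 and 0 bases for Ccr9. The CACCC core was found 4 times each in Itgb7 and Itga4 and 1 time in Cxcr4, Ccr4 and Ccr9, and it is common, with a match in 52.0% of all 32851 RefSeq windows of this length. Cxcr4 alone had TATAAA, 30 bases before the start, where it overlaps a TTTATA match by 4 bases, and 12.4% of windows have that motif. E-boxes are in 6.02% of windows and the forkhead core in 3.17%. Gpr183 had no match to any of the 4 motifs, and its window was 32% G and C, against 61.2% in Cxcr4. Whether any of these matches bears on the level of its gene was not tested.

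The lymphomas lay on 1 side of the CD4 libraries for 7 of the 9 genes and on both sides for Ccr4 and Itga4. Over all tested genes, 44.9% did not overlap between the groups. Each lymphoma had 6 to 8 of the 9 genes below the lowest CD4 library and 1 to 3 above the highest. The same share over all tested genes was not counted for single libraries, so these counts are description only. Among the lymphomas the highest level was 2.21 times the lowest for Ccr9, 2.50 times for Itga4, 2.52 times for Gpr183 and 2.59 times for S1pr1. The spread was wider for Cxcr4 (3.17 times), Ccr7 (3.82), Cd69 (4.88), Ccr4 (4.89) and Itgb7 (9.80). Lymphoma 53 held the highest S1pr1, Cxcr4, Itgb7 and Cd69 and the lowest Ccr7 and Ccr4 of the 6. Without it, the same genes S1pr1, Gpr183, Cd69, Ccr7, Ccr9 and Itgb7 stayed lower, Cxcr4 stayed higher and Ccr4 was also called higher. Calls over all genes rose too without lymphoma 53, to 4207 higher and 3930 lower of 15174 tested. With all libraries they were 3798 higher and 3376 lower of 15401.

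**Figure D3:**
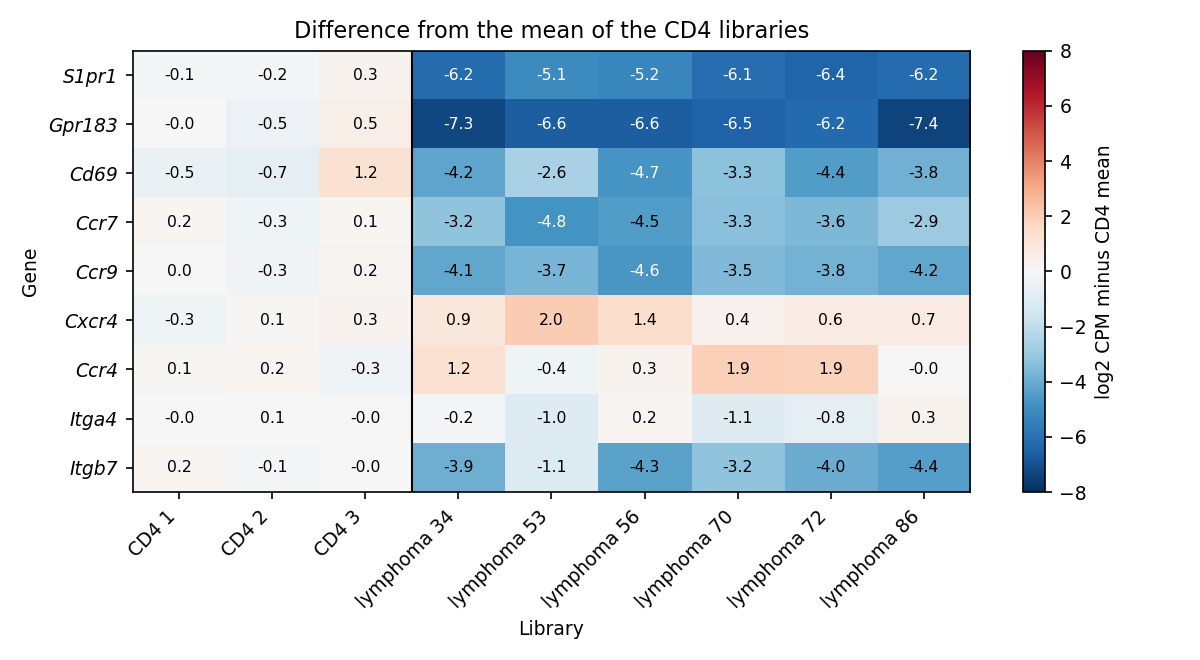
Difference in log2 CPM (prior count 2) of each receptor gene from the mean of the 3 CD4 libraries, for each library; blue is lower and red is higher. Over the lymphomas the difference runs from -7.40 to -6.25 for Gpr183 and from -6.41 to -5.07 for S1pr1, while for Ccr4 it is 1.91 in lymphoma 70, 1.87 in lymphoma 72 and -0.36 in lymphoma 53.

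Genes around these receptors were examined through 6 lists of related genes. Beside the counts of these lists, 21.9% of all tested genes were called lower and 24.7% higher. No list was tested as a whole. Of 11 other genes of the S1P pathway, 9 were tested, 0 were higher and 5 lower, with a median log2 fold change of -1.49. The largest falls were in other S1P receptors, S1pr3 (-6.43, SE 0.992, 0 to 5 counts per lymphoma) and S1pr5 (-5.24, SE 0.870, 0 to 6 counts), which steers natural killer cells. The other genes of this list called lower were S1pr4 (-1.49, SE 0.156), Sgpl1 (-1.56, SE 0.221) and Plpp3 (-3.53, SE 0.731, 2 to 17 counts per lymphoma). Sphk2 and Sgpp1, which make and dephosphorylate S1P, did not pass (edgeR adjusted p 0.819 and 0.977). Of 24 other chemoattractant receptors, 19 were tested, 0 were higher and 10 lower, with a median of -2.47. Ackr2, a scavenger of inflammatory chemokines, had 13 to 63 counts per CD4 library and 0 in each of the 6 lymphomas, and its mean was at least 17.2-fold lower, taking 3 counts per library as the floor. Ccr6, a receptor for CCL20 found on B cells and some T cells, changed by -7.17 (SE 0.603). Cxcr3, the receptor of effector T cells, overlapped between the groups, at 1.64 to 47.3 CPM in lymphoma and 20.5 to 28.8 CPM in CD4.

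**Figure D4:**
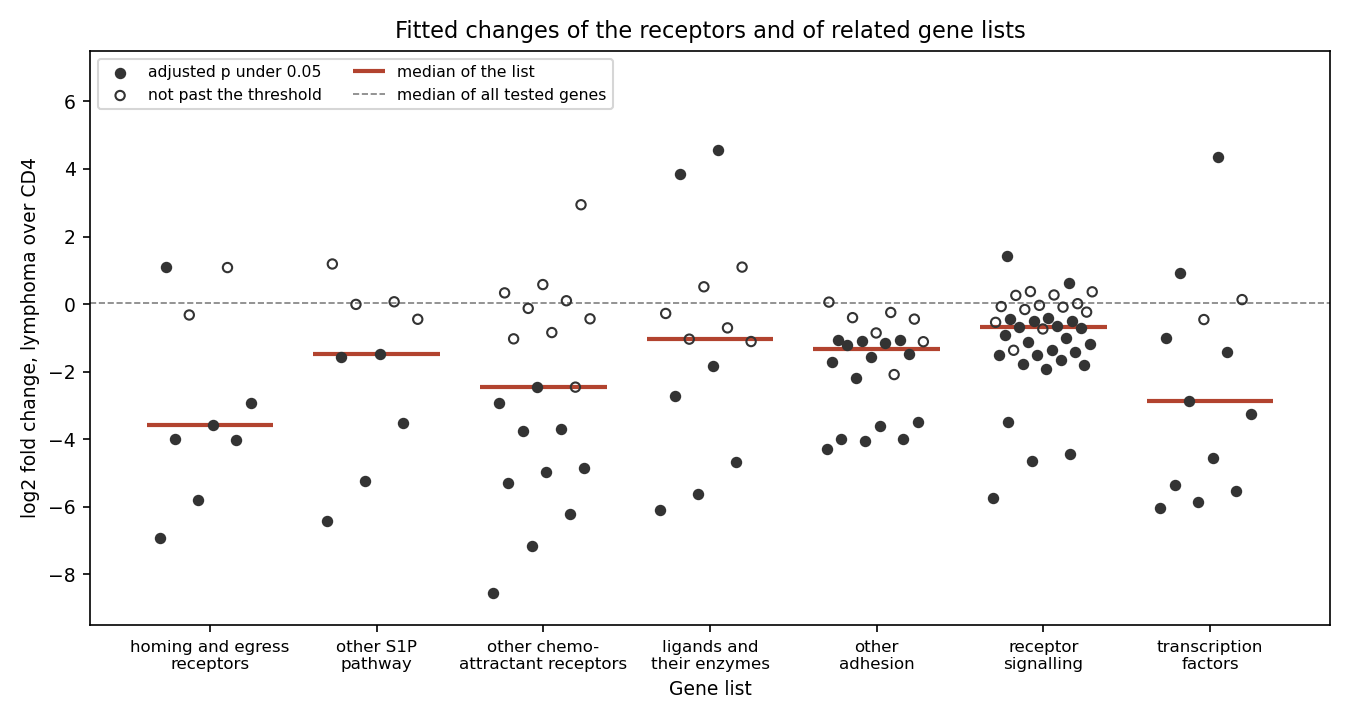
Fitted log2 fold change, lymphoma over CD4, of each tested gene in the receptor set and in the 6 related lists; filled points passed the adjusted p threshold, open points did not, red bars are list medians and the dashed line is the median of all tested genes. The medians run from -3.59 for the receptors to -0.68 for receptor signalling.

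Ligands of these receptors, with the enzymes that make oxysterols, numbered 22. Of these, 13 were tested, with 2 higher, 5 lower and a median of -1.04 (all tested genes: 24.7% higher, 21.9% lower). Vcam1, which α4 integrins bind, was at 10.3 to 124 CPM in lymphoma and 52.2 to 111 CPM in CD4 and did not pass (-1.04, SE 0.733, edgeR adjusted p = 0.279). Ccl25, the ligand of CCR9, was at 5.54 to 13.8 CPM in lymphoma and 1.68 to 9.91 CPM in CD4 and did not pass either (0.51, SE 0.495, edgeR adjusted p = 0.428). Ccl19, Ccl21a, Ccl21b, Ccl20 and Madcam1 had 0 counts in all 9 libraries, which allows at most 0.360 CPM. Ccl21a and Ccl21b are near-identical copies, so their counts are uncertain. The chemokines Ccl5 and Ccl4, made by activated T and natural killer cells, fell most (-6.09, SE 0.563, and -5.61, SE 0.795). Ccl17, a ligand of CCR4, had 7 to 38 counts per lymphoma and 0, 0 and 4 counts in CD4 1, 2 and 3 (log2 fold change 3.86, SE 1.13, edgeR adjusted p = 0.0146). Cxcl13, the ligand of CXCR5, had 4 to 105 counts per lymphoma and 0, 0 and 3 in CD4 1, 2 and 3 (edgeR adjusted p = 0.0156). Over the summed counts the ratio was 24.98, with an exact 95% interval of 8.43 to 122 that covers counting error only, and 15.3 (5.10 to 75.4) without lymphoma 86. Its groups overlapped through lymphoma 70. The call was lost without CD4 1 or CD4 2 (edgeR adjusted p 0.0536 and 0.0578) and with limma voom (adjusted p = 0.0805).

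Of 24 other adhesion genes 22 were tested, 0 were higher and 15 lower, with a median of -1.34. Over all tested genes 24.7% were called higher and 21.9% lower. The largest falls were Itgax (-4.28, SE 0.491), the αX chain known from dendritic cells, and Jaml (-4.05, SE 0.429), a junctional adhesion protein. The integrin LFA-1 of the chains Itgal and Itgb2 changed by -1.06 (SE 0.200) and -1.20 (SE 0.270). Of 38 genes that carry receptor signals, 38 were tested, 2 were higher and 23 lower, with a median of -0.68. Gnai2, the main G protein subunit of chemokine receptors, did not pass (-0.09, SE 0.144, edgeR adjusted p = 0.638), while its relative Gnai3 rose by 1.42 (SE 0.279). The signalling brakes Rgs1 and Rgs18 fell most (-5.75, SE 0.711, and -4.64, SE 0.866). Fermt3, the kindlin that activates leukocyte integrins, rose by 0.63 (SE 0.189, edgeR adjusted p = 0.0171), a call lost without CD4 2 or CD4 3 (edgeR adjusted p 0.0789 and 0.0633). It was also lost with lymphomas 34, 70 and 72 averaged and 56 and 86 averaged (edgeR adjusted p = 0.0508).

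Of 13 transcription factors linked to lymphocyte traffic, 2 were higher and 9 lower, with a median of -2.88 (all tested genes: 24.7% higher, 21.9% lower). Klf2 had 576, 499.8 and 1146 CPM in CD4 1, 2 and 3 and 5.04, 20.6 and 105 CPM as the lowest, median and highest lymphoma (-4.57, SE 0.882, edgeR adjusted p = 0.00282). Foxo1 had 440, 387 and 418 CPM in the same order and 28.4, 34.7 and 167 CPM (-2.88, SE 0.542, edgeR adjusted p = 0.00168). Lymphoma 53 was the highest lymphoma for Klf2 and Foxo1, as it was for Itgb7 and S1pr1, but it was the lowest for Ccr7. The largest falls of the list were Klf6 (-6.04, SE 0.513) and Klf3 (-5.87, SE 0.437), and the rises were Gfi1 (4.36, SE 0.797), a repressor active in early thymocytes, and Gata3 (0.93, SE 0.339), whose groups overlapped. The Gata3 call was lost in 15 of 19 alternatives, among them leaving out any CD4 library or lymphoma 34, 56, 70 or 72.

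**Figure D5:**
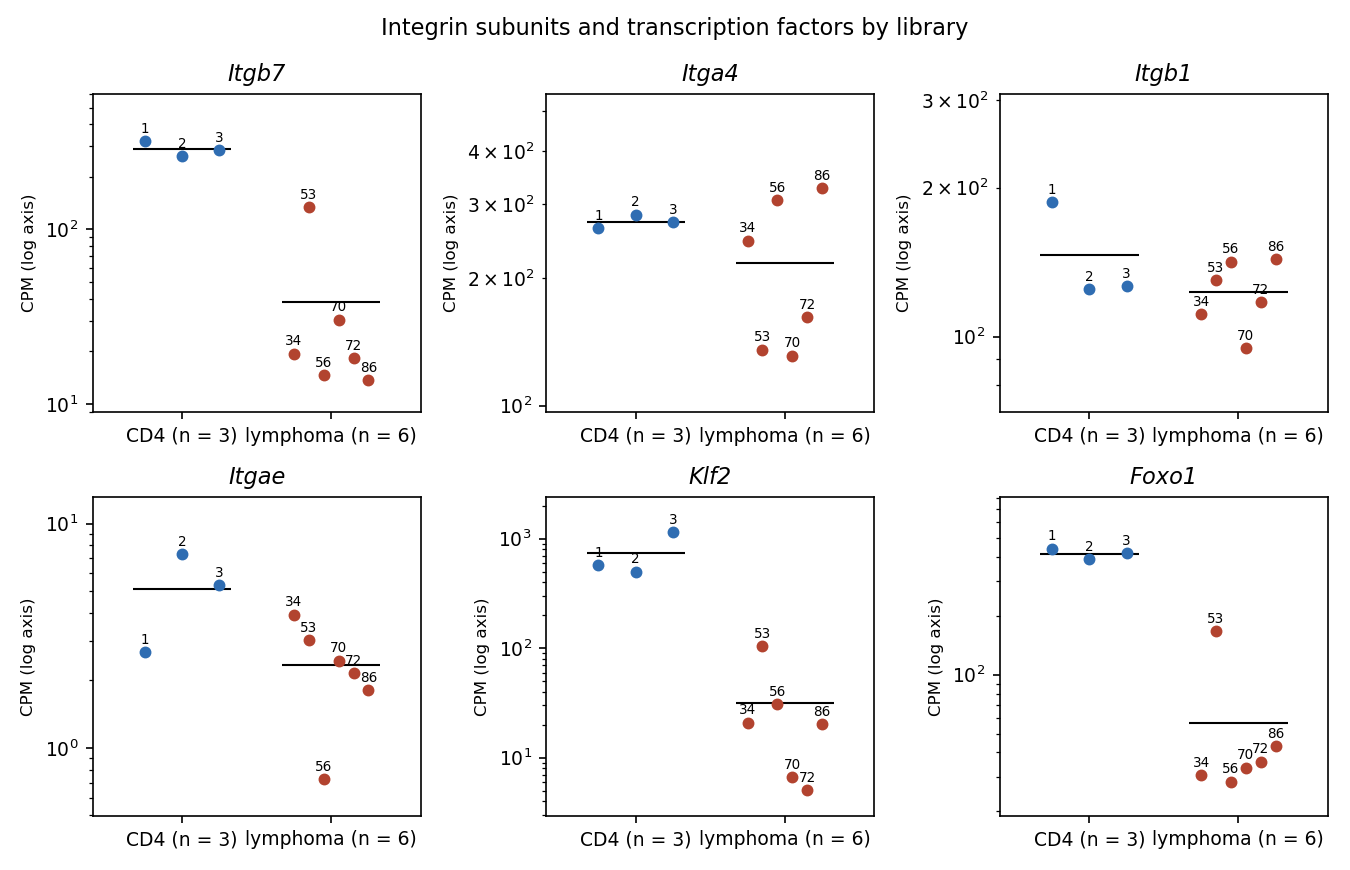
Level in CPM (log axis) of Itgb7, the other integrin chains Itga4, Itgb1 and Itgae and the transcription factors Klf2 and Foxo1 in each CD4 (blue) and lymphoma (red) library, with library numbers and group means. Lymphoma 53 is the highest lymphoma for Itgb7 (134 CPM), Klf2 (105 CPM) and Foxo1 (167 CPM), and Itgae overlaps between the groups, at 0.728 to 3.93 CPM in lymphoma and 2.67 to 7.32 CPM in CD4.

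Several of these changes were moved by more than 1.5 times when 1 library was left out, with direction and call kept. Without lymphoma 53 the log2 fold change was -5.47 for Klf2 and -3.60 for Foxo1, and without lymphoma 34 it was -8.09 for S1pr3 and -5.39 for Rgs18. Without CD4 3 it was -4.37 for Ccl4, -4.86 for Klf6 and -4.92 for Rgs1. Ccl17 and Cxcl13 had 0 counts in CD4 1 and CD4 2, so their fitted changes without CD4 3 depend on the prior count and are not given.

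The genes whose profile over the 9 libraries was most like each receptor's were sought among 8826 genes with a mean log2 CPM of at least 3, by the root mean square difference in log2 CPM after centring. For S1pr1 these were Btla (0.31) and Satb1 (0.36), for Ccr7 Trim30a (0.35) and Ttn (0.42), and for Ccr9 Pik3r5 (0.29) and H2-Eb1 (0.30). The nearest to Gpr183 were Btg1 (0.56) and the B cell gene Cr2 (0.58), and to Cd69 Nfkbiz (0.50) and 4930523C07Rik (0.54). For Itgb7 they were Pea15a (0.40) and Foxo1 (0.42). The genes without a large fall had Gm11539 (0.22) and Fbxo31 (0.22) beside Cxcr4, Hap1 (0.17) and Cab39l (0.26) beside Ccr4, and Abcd3 (0.21) and Fam21 (0.24) beside Itga4. For the fallen genes this measure is dominated by the difference between the groups, which many genes share.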

How the data were processed

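The deposited table holds raw read counts per Ensembl gene and library, per the file headers. FastQC, HISAT2, SAMtools and HTSeq and the builds mm10 and GRCm38 are named in the submitters' processing notes; versions, annotation and strand setting are not given in the sources used here. Reads in closing summary rows name no gene and were left out. They made up 50.9% to 61.3% of reads in the lymphomas and 65.0% to 72.2% in the CD4 libraries. This share thus also coincided with the group, and its bearing on the levels was not tested. The number of table columns that matched no sample was 0.

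The test was edgeR 4.0.16 (R 4.3.3) on these counts: filterByExpr (minimum count 10), TMM scaling, glmQLFit (robust) and glmQLFTest over all 9 libraries, Benjamini-Hochberg adjustment over 15401 genes and 0.05 as threshold. The SE is the absolute log2 fold change over the square root of F. The fit was also run on simulated counts in which few genes were changed. That run cannot show how the fit behaves where many genes differ, as here. Marker sums were compared by exact permutation of 84 assignments. The floor of 3 counts covers counting error only, as the labels name no molecular identifiers. Gene positions are from GENCODE M21 (GRCm38), matched by Ensembl ID, and promoters from RefSeq (GRCm38.p6).

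The receptors, lists and motifs were chosen with earlier results of these data known. Named genes are the 9 receptors, the 2 largest rises and falls past the threshold per related list, the partners Itgb1, Itgae, Klf2 and Foxo1, and the 2 nearest profiles per receptor; others were named after their values were seen. Values of some named or marker genes are not reported here. Cd28 has 2 rows and was left out of the T cell markers. Alternatives were RLE, upper quartile and no scaling, 2 other filters, DESeq2 1.42.0, limma voom (limma 3.58.1), a threshold of 0.01, lymphomas averaged in case they are not independent, and leaving out each library.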

Additional observations from a re-analysis of the deposited data

Results flagged for a closer look

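Among the 6 lymphomas, 39 values were searched for a library standing away from the other 5. This means that its gap to the nearest library exceeded 0.625 of the whole range, where chance flags about 1.95. That figure assumes normally distributed values, which CPM levels need not be, so chance may flag more. The search flagged 9 values, and 4 of them concern lymphoma 53. In lymphoma 53, Itgb7 stood at 134 CPM against 13.6 to 30.4 CPM in the others, Foxo1 at 167 CPM against 28.4 to 43.1 CPM, Klf2 at 105 CPM against 5.04 to 30.8 CPM, and the sum of T cell markers at 3633 CPM against 1997 to 2536 CPM. In lymphoma 86, Ccl5 had 4.62 CPM against 0.291 to 1.74 CPM, Cxcl13 7.58 CPM against 0.245 to 2.64 CPM, and the natural killer and innate lymphoid markers summed to 63.2 CPM against 9.69 to 27.5 CPM. In lymphoma 34, Rgs18 had 0.774 CPM against 0 to 0.289 CPM and S1pr3 0.322 CPM against 0 to 0.0722 CPM, which rest on few counts.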

How the results depend on the processing

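Over 19 alternatives (18 for Gpr183, which has 9 counts in lymphoma 86 and drops out at 10 counts in every library), S1pr1, Gpr183, Ccr7, Ccr9 and Cd69 kept direction and call, with log2 fold changes of -5.98 to -5.57, -7.14 to -6.64, -3.75 to -3.43, -4.12 to -3.87 and -4.38 to -3.10. Itgb7 ranged from -3.91 to -2.34 and was not called with lymphomas 34, 70 and 72 averaged and 56 and 86 averaged (-2.34, edgeR adjusted p = 0.0546), where fewer libraries enter the fit. Cxcr4 ranged from 0.82 to 1.37, with adjusted p from 0.00716 to 0.0871, and was not called at a threshold of 0.01 (1.11). Itga4 (-0.44 to -0.17) was not called in any alternative. Ccr4 ranged from 0.67 to 1.27, with adjusted p from 0.0355 to 0.315, and leaving out 1 library gave 0.84 to 1.27. Leaving out 1 library gave 0.82 to 1.26 for Cxcr4. The number of receptors called higher was 0 at the threshold of 0.01 and 0 to 2 when 1 library was left out, and the number called lower was 5 or 6. The count of all genes called ranged from 4915 to 8137, and the median log2 fold change of all genes from -0.06 (upper quartile) to 0.20 (no filter).

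Leaving out 1 library moved the difference of summed markers, lymphoma minus CD4, within -1467 to -1337 CPM for B cells, -226 to -212 CPM for plasmacytoid cells, -92.4 to -81.7 CPM for natural killer and innate lymphoid cells, -108 to -91.2 CPM for stroma and endothelium, 20.7 to 27.3 CPM for erythroid cells, -595 to -268 CPM for T cells and -183 to 38.9 CPM for myeloid cells. Without a CD4 library the smallest exact permutation p is 0.0714, so no such list can pass, and without a lymphoma other than 53 the adjusted p of the lists that passed is 0.05. No paired analysis was possible because the groups share no replicate numbers.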

Other observations

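S1pr2, the S1P receptor that inhibits migration and confines germinal centre cells, was at 46.3 CPM in lymphoma 53, at 2.62 to 10.1 CPM in the other lymphomas and at 2.57 to 8.68 CPM in CD4. It was singled out after the values were seen and did not pass the test between groups (log2 fold change 1.19, SE 0.851, edgeR adjusted p = 0.283). Ltb4r1, a leukotriene B4 receptor, was at 21.9 CPM in lymphoma 34 and at 0.361 to 4.22 CPM in the other lymphomas. In CD4 it was at 0 to 1.14 CPM. Cx3cr1, the receptor for fractalkine, lay at 21.9 to 24.1 CPM in lymphomas 34, 70 and 72, which are those with more Ccr4. It lay at 1.64 to 13.5 CPM in lymphomas 53, 56 and 86 and at 9.08 to 11.1 CPM in CD4. Cxcr3 was lowest in lymphomas 70 and 72, at 5.14 and 1.64 CPM, and highest in lymphoma 86, at 47.3 CPM. Ltb4r1, Cx3cr1 and Cxcr3 were also singled out after the values were seen. None of them passed the test between groups (edgeR adjusted p 0.158, 0.491 and 0.673), and their patterns among the lymphomas were not tested.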
